A study of Mus musculus with 8 samples.

Results

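The MHC class II presentation genes described here are H2-Aa, H2-Ab1, H2-Eb1, H2-DMa, H2-DMb1, Cd74 and Ciita, which were chosen by name and make up 7 of the 13387 genes in the count table. All 7 passed the filter on low counts, which left 11722 genes to be tested. The table came from bulk RNA sequencing of wild-type C57BL/6 mouse bone marrow megakaryocytes (MKs, the cells that release platelets) in 2 groups, MKs cultured alone and MKs cultured with mesenchymal stromal cells (MSCs), with 4 libraries in each. MKs were enriched from marrow on CD41 beads, MSCs were sorted from marrow as CD45-Ter119-CD31-CD51+CD140a+ cells, the mice of the study were 8 to 12 weeks old, and thrombopoietin was in the medium of both groups for the 18 h of culture. The deposited description names the sequenced cells as MKs freed of platelets, whereas the study's methods name platelets pooled from 5 wells for each library, and MSC markers were high in the cocultures, as given below. Bead enrichment leaves other marrow cells in the preparation, and while the study counts 4 mice per group, the labels do not tie libraries to animals or cultures, so the p-values measure the spread between these libraries, part of which may be technical.

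MHC class II molecules are heterodimers of an alpha and a beta chain that carry peptides from endocytosed proteins to the cell surface, where CD4+ T cells read them. In the endoplasmic reticulum the chains assemble on the invariant chain, the product of Cd74, which endosomal proteases later cut down to a short peptide that H2-DM exchanges for antigen. Transcription of these genes depends on CIITA, a coactivator that does not bind DNA itself and docks on RFX, CREB and NF-Y proteins assembled on the X and Y boxes of each promoter. Dendritic cells, macrophages and B cells are the usual class II positive cells of marrow, and C57BL/6 mice carry a defective H2-Ea gene, so that their class II surface molecule is the pair of H2-Aa and H2-Ab1.

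In the mouse genome build GRCm38, 5 of the 7 genes lie on chromosome 17 in the class II region: H2-DMa at chr17:34119541-34139101 and H2-DMb1 at chr17:34153072-34160230 on the plus strand, H2-Ab1 at chr17:34257689-34269419 on the plus strand, H2-Aa at chr17:34282744-34287823 on the minus strand and H2-Eb1 at chr17:34305867-34316674 on the plus strand. Ciita lies at chr16:10480059-10528418 on the plus strand. RefSeq promoter windows, 250 bases before to 50 bases after the gene start in build GRCm38.p6, were matched for 4 of the 7 genes. The letters GNAACT, the core of the X box, and TGATTGG, the inverted CCAAT of the Y box, were searched on both strands. Overlapping matches were allowed, and the letters were set after these windows had been read. GNAACT stood in 42.8% and TGATTGG in 7.82% of 32851 windows, and GNAACT followed by TGATTGG on the same strand with 15 to 40 bases between them stood in 80 windows, or 0.244%. H2-Aa, H2-Eb1, H2-DMb1 and the neighbouring class II gene H2-Eb2 were among them, and the stretches are shown because they hold the elements through which CIITA is known to act, with those letters in capitals.
H2-Aa, chr17:34287847-34287924, minus strand: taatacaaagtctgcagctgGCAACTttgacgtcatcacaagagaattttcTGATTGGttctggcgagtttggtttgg
H2-Eb1, chr17:34305756-34305832, plus strand: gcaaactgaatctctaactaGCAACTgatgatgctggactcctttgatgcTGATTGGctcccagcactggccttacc
H2-DMb1, chr17:34153077-34153154, plus strand: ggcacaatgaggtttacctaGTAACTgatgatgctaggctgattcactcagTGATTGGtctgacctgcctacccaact
H2-Eb2, chr17:34325523-34325599, plus strand: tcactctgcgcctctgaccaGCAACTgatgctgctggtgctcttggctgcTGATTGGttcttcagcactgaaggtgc
The spacing between both elements was 25 bases in H2-Aa and H2-DMb1 and 24 bases in H2-Eb1 and H2-Eb2. The H2-DMa windows held no such pair, and neither did the windows of the neighbouring class II genes H2-DMb2, H2-Oa and H2-Ob, which held TGATTGG alone. By the GENCODE model the H2-DMa and H2-DMb2 windows start inside the gene, so they may miss the promoter. The H2-DMb1 stretch shown also lies inside the gene by that model, whose start is upstream of the RefSeq start. Such a match describes letters in a window and is no measurement of binding.

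The libraries held 4939874 to 9272984 counts from MKs cultured alone and 5193949 to 12523616 counts from cocultures, which put 3 counts at 0.284 to 0.662 CPM (counts scaled to a common library total) after TMM scaling, the normalization used for all CPM values here. All 15 MK and platelet markers examined had counts in every library, although Gp9 was at 0.105 CPM in coculture replicate 3, below 3 counts. Coculture replicate 3 stood apart, with 2652 genes at 0 against 194 to 283 in the other cocultures, and results that rest on it are given with and without it. A gene was called when it differed at least 2-fold with an adjusted p of at most 0.05 in edgeR's quasi-likelihood test and reached 1 CPM on average in a group.

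Of the 7 genes, 6 were called lower and 0 higher, against 7.31% of all tested genes called lower, 13.2% called higher and 20.5% called in either direction. The same 6 genes were lower in each coculture than in any library of MKs cultured alone, a separation that 21.1% of all tested genes showed in this direction and 19.3% in the opposite direction. The median log2 fold change was -1.94 over the 7 genes and 0.034 over all tested genes. H2-DMb1, the beta chain of H2-DM, was the exception. In bulk RNA, fewer cells of a type and less RNA per cell cannot be told apart.

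**Figure D1:**
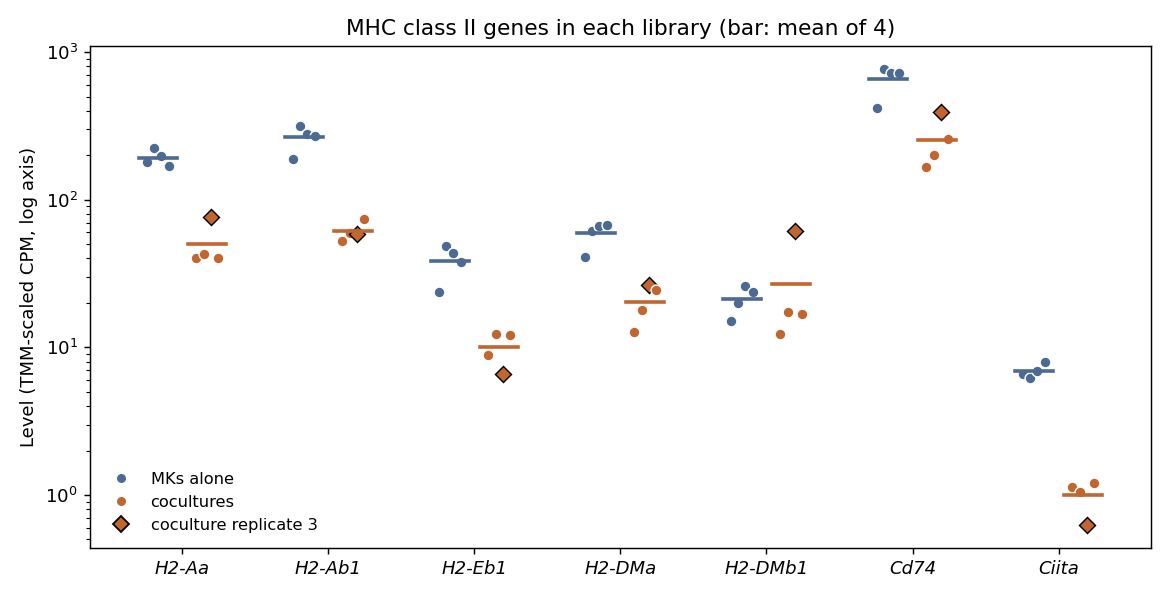
CPM (log axis) of each of the 7 genes in every library of MKs cultured alone and of cocultures, with points for libraries, a diamond for coculture replicate 3 and bars for group means. In 6 genes the cocultures lie below all libraries of MKs cultured alone. In H2-DMb1 the groups overlap with or without coculture replicate 3, which lies at 61.6 CPM.

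Among the chains, H2-Ab1 encodes the beta chain of the class II molecule of this strain and was the highest chain gene. It was at 189.8, 316.1, 279.4 and 271.7 CPM in MKs cultured alone and at 52.8, 59.3, 58.3 and 73.9 CPM in the cocultures. The groups did not overlap, and H2-Ab1 was 4.33-fold lower in the cocultures (log2 fold change -2.11 ± 0.22 SE, adjusted p = 0.000205 in edgeR's test). H2-Aa, which encodes the partner alpha chain, was at 180.5, 224.2, 196.6 and 168.2 CPM in MKs cultured alone and at 40.1, 43.0, 76.2 and 40.1 CPM in the cocultures. Coculture replicate 3 was the highest of its group but remained below each library of MKs cultured alone, and the fall was 3.86-fold (log2 fold change -1.95 ± 0.26 SE, adjusted p = 0.000979, edgeR). H2-Eb1, the beta chain for which this strain lacks a functional alpha partner, was at 23.6, 48.3, 43.8 and 37.7 CPM in MKs cultured alone and at 8.91, 12.4, 6.59 and 12.1 CPM in the cocultures. Its groups also lay apart, with a 3.84-fold lower level in the cocultures (log2 fold change -1.94 ± 0.38 SE, adjusted p = 0.00665, edgeR).

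The proportions among the chain genes were compared within each library. H2-Aa stood at 0.619 to 0.951 of H2-Ab1 in MKs cultured alone and at 0.542 to 1.31 in cocultures, a log2 difference of 0.10 that was within the spread (exact permutation test of log2 ratios, two-sided, p = 0.743, n = 4 and 4) and that turned to -0.14 without coculture replicate 3 (exact p = 0.571). H2-Eb1 stood at 0.124 to 0.157 of H2-Ab1 in MKs cultured alone and at 0.113 to 0.209 in cocultures, a log2 difference of 0.17 that was also within the spread (exact permutation test, two-sided, p = 0.457, n = 4 and 4). The H2-Eb1 ratio in cocultures without replicate 3 was 0.164 to 0.209, above all MKs cultured alone, with a log2 difference of 0.33 and an exact p of 0.0571, the smallest that 4 against 3 libraries allow. These were among 11 ratios within libraries, all chosen after the values were seen, and the smallest p that 4 against 4 libraries allow is 0.0286. Adjusted over the 11 ratios, the exact p-values of these chain ratios were 0.817 and 0.559. The 11 include Ctss per summed chains and summed chains per macrophage markers, which had to separate, as given below. Counting them lowered the adjusted p of the other ratios that separated. The adjusted p of 0.0449 (exact permutation test) given below for those other ratios is therefore not taken as passing the threshold.

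Cd74, the invariant chain that chaperones class II dimers, was the highest of the 7 genes. It was at 416.2, 771.5, 717.7 and 718.1 CPM in MKs cultured alone and at 167.2, 199.4, 394.1 and 256.0 CPM in the cocultures. The groups did not overlap, although coculture replicate 3 came near the lowest library of MKs cultured alone, and Cd74 fell 2.58-fold (log2 fold change -1.37 ± 0.32 SE, adjusted p = 0.0148, edgeR). Without MKs-alone replicate 2, coculture replicate 2 or coculture replicate 4, the adjusted p of Cd74 in edgeR's test rose to 0.0584, 0.0566 and 0.0506, and without coculture replicate 3 it was 1.15e-05. Cd74 per summed chain transcripts was 1.06 to 1.503 in MKs cultured alone and 1.64 to 2.79 in cocultures. The ratio was thus higher in every coculture than in any library of MKs cultured alone, so Cd74 fell less than the chains in these libraries. The exact permutation test gave p = 0.0286 (two-sided, adjusted over the 11 ratios 0.0449, n = 4 and 4). That adjusted p cannot decide whether the ratio passes the threshold, because the 11 ratios include some that had to separate. Without coculture replicate 3 the ratio was 1.64 to 2.03 in cocultures. The log2 difference was then 0.46 in place of 0.62 (exact permutation p = 0.0571, the smallest that 4 against 3 libraries allow).

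Ciita, the coactivator on which the other genes depend, showed the largest fold change of the 7. It was at 6.62, 6.18, 6.88 and 7.97 CPM in MKs cultured alone, from 30 to 62 counts, and at 1.14, 1.04, 0.63 and 1.21 CPM in the cocultures, from 6 to 12 counts. All 4 cocultures were low, and Ciita was 6.81-fold lower (log2 fold change -2.77 ± 0.53 SE, adjusted p = 0.00600, edgeR). Its counts were the lowest among the 7 genes. Ciita per summed chain transcripts was 0.0105 to 0.0168 in MKs cultured alone and 0.00445 to 0.0112 in cocultures, and this log2 difference of -0.79 missed the threshold (exact permutation test, two-sided, p = 0.0571, adjusted over the 11 ratios 0.0786, n = 4 and 4). It was -0.50 without coculture replicate 3.

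The H2-DM subunits, which form the peptide exchange factor, parted. H2-DMa, the alpha subunit, was at 41.1, 61.3, 66.5 and 67.5 CPM in MKs cultured alone and at 12.8, 18.0, 26.6 and 24.3 CPM in the cocultures. It was 2.90-fold lower in the cocultures without overlap between the groups (log2 fold change -1.53 ± 0.33 SE, adjusted p = 0.00994, edgeR). H2-DMb1, a beta subunit, was at 15.01, 20.1, 26.2 and 23.6 CPM in MKs cultured alone and at 12.2, 17.3, 61.6 and 16.8 CPM in the cocultures. Only coculture replicate 3 was above all MKs cultured alone, and the log2 fold change was 0.35 ± 0.55 SE with a 95% interval from -0.89 to 1.59 (adjusted p = 0.689, edgeR). Without that library the log2 fold change of H2-DMb1 was -0.49 ± 0.25 SE (adjusted p = 0.105, edgeR).

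H2-DMb1 per H2-DMa was 0.328 to 0.393 in MKs cultured alone and 0.956, 0.964, 2.32 and 0.693 in the cocultures, so that the ratio was 3.08-fold higher and the groups did not overlap (exact permutation test, two-sided, p = 0.0286, adjusted over the 11 ratios 0.0449, n = 4 and 4). Without coculture replicate 3 the ratio in cocultures spanned 0.693 to 0.964, and the exact permutation p was 0.0571, the smallest that 4 against 3 libraries allow. The neighbouring H2-DMb2, a near copy of H2-DMb1 that also encodes a beta subunit, moved otherwise. It was at 27.8, 41.8, 36.4 and 41.3 CPM in MKs cultured alone and at 6.26, 8.60, 0.94 and 9.02 CPM in the cocultures, a 5.95-fold lower level (log2 fold change -2.57 ± 0.63 SE, adjusted p = 0.0188, edgeR). Without MKs-alone replicate 2, 3 or 4 the adjusted p of H2-DMb2 in edgeR's test was 0.0567, 0.0501 and 0.0561. H2-DMb1 per H2-DMb2 rose from 0.480 to 0.720 in MKs cultured alone to 1.87 to 2.02 in 3 cocultures and 65.4 in coculture replicate 3 (exact permutation test, two-sided, p = 0.0286, adjusted 0.0449, n = 4 and 4).

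The division of reads between both beta genes was uncertain. Of all 31-base words in the transcripts of H2-DMb1, 31.4% also occurred in H2-DMb2, and of those of H2-DMb2 29.7% occurred in H2-DMb1, so the assignment of reads by kallisto, which matches such words, could have split them. The sum of both genes, which does not depend on that split, was 42.8, 61.9, 62.5 and 64.9 CPM in MKs cultured alone and 18.5, 25.9, 62.6 and 25.8 CPM in the cocultures. In 3 cocultures the sum was below all MKs cultured alone, and in coculture replicate 3 it was not. The sum per H2-DMa was 0.940 to 1.04 in MKs cultured alone and 1.06 to 2.35 in cocultures, a smaller shift in the same direction (log2 difference 0.61, exact permutation test, two-sided, p = 0.0286, adjusted 0.0449, n = 4 and 4). Without coculture replicate 3 it was 1.06 to 1.44 in cocultures, a log2 difference of 0.40 (exact p = 0.0571). H2-DMa shared 9.23% of its words with Brd2, which overlaps it on the opposite strand and was not called (log2 fold change 0.19), and Ciita shared 2.77%, whereas in the other 4 genes the share was at most 1.41%.

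Levels between genes were compared as mean CPM per kilobase of exonic length. In MKs cultured alone the order was Cd74 at 390.6 ± 96.3 (SD, n = 4), H2-Ab1 at 102.9 ± 20.7, H2-Aa at 50.7 ± 6.36, H2-Eb1 at 19.7 ± 5.53, H2-DMa at 17.1 ± 3.58, H2-DMb1 at 12.6 ± 2.87 and Ciita at 0.725 ± 0.0799 CPM per kilobase. H2-Eb1 and H2-DMa overlapped in range, as did H2-DMa and H2-DMb1, whereas the other neighbours did not. In the cocultures the same scale gave Cd74 151.4 ± 59.7, H2-Ab1 23.8 ± 3.51, H2-DMb1 16.1 ± 13.8, H2-Aa 13.1 ± 4.64, H2-DMa 5.92 ± 1.81, H2-Eb1 5.15 ± 1.43 and Ciita 0.105 ± 0.0274 CPM per kilobase. H2-DMb1 thus moved from the sixth to the third place, with a range of 7.27 to 36.7 that overlapped those of its neighbours. Without coculture replicate 3 it averaged 9.20 ± 1.67 CPM per kilobase (SD, n = 3) and came after H2-Aa at 10.8 ± 0.441.

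**Figure D2:**
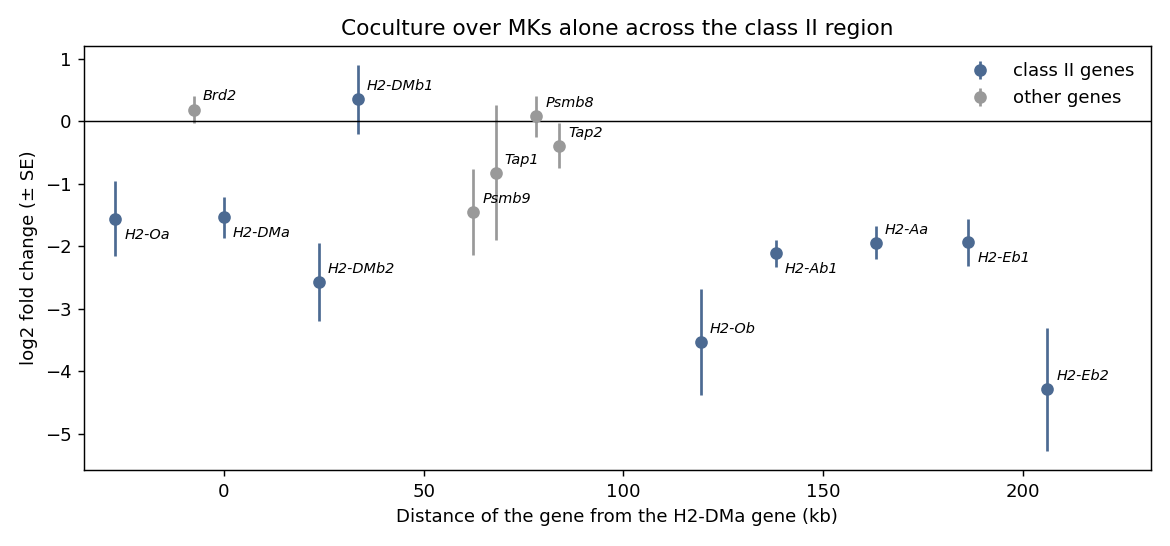
Log2 fold change of cocultures over MKs cultured alone (vertical axis, with SE bars) for the 14 genes of the table in the class II region, by the distance of each gene's left end from that of H2-DMa in kilobases (horizontal axis). Class II genes lie below 0 apart from H2-DMb1, and none of the 5 other genes was called.

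The remaining class II genes of the region moved with those of the 7 genes that fell. H2-Ob, the beta chain of H2-O, an inhibitor of H2-DM found mainly in B cells, was at 97.6, 91.3, 83.7 and 73.0 CPM in MKs cultured alone and at 12.1, 7.03, 0.21 and 10.4 CPM in the cocultures (log2 fold change -3.54 ± 0.85 SE, adjusted p = 0.0172, edgeR). H2-Eb2, a second E beta gene whose promoter is shown above, was at 21.0, 16.4, 8.87 and 18.4 CPM in MKs cultured alone and at 1.52, 0.52, 0 and 1.21 CPM in the cocultures (log2 fold change -4.29 ± 0.99 SE, adjusted p = 0.0145, edgeR). H2-Oa, the alpha chain of H2-O, was at 4.19, 3.92, 4.44 and 4.72 CPM in MKs cultured alone and at 0.76, 1.43, 2.72 and 0.87 CPM in the cocultures. All cocultures were lower, but H2-Oa was not called with all libraries (log2 fold change -1.56 ± 0.60 SE, adjusted p = 0.0937, edgeR) and was called without coculture replicate 3 (log2 fold change -2.09 ± 0.46 SE, adjusted p = 0.00102, edgeR). Without coculture replicate 2 the adjusted p of H2-Ob was 0.0511 (edgeR). Thus 3 of these 4 genes, counting H2-DMb2, were called lower.

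Within the 249 kb from H2-Oa to H2-Eb2, a stretch defined after the values were seen, 7 of 9 class II genes were called lower. The other 5 genes, which are Brd2 and genes that supply peptides to class I molecules, were not called. Their log2 fold changes were -1.46 ± 0.69 SE for Psmb9 and 0.07 ± 0.33 SE for Psmb8, both immunoproteasome subunits. The values were -0.83 ± 1.08 SE for Tap1 and -0.39 ± 0.36 SE for Tap2, which form the peptide transporter. Brd2, a chromatin reader, had a value of 0.19 ± 0.22 SE. The difference between the class II genes and these neighbours was not tested.

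Of 51 further pathway genes that were listed by role, the class II genes just named included, 41 were tested, and 6 were called higher, 7 lower and 28 neither. The shares of all tested genes were again 13.2% and 7.31%. Without coculture replicate 3, 17 were called lower, while 15.4% of all genes were then called lower. Among the 7 proteins that bind the class II promoter, 1 fell: Creb1, which binds beside RFX at the X box, had a log2 fold change of -1.93 ± 0.58 SE (adjusted p = 0.0438, edgeR), and its adjusted p passed 0.05 when any library other than coculture replicate 3 was left out (0.0664 to 0.105). The RFX subunits and the NF-Y subunits were not called, and Rfx5 had a log2 fold change of 0.53 that turned to -0.49 without coculture replicate 3, in which it was at 72.2 CPM against 10.7 to 16.6 CPM in the other cocultures.

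On the interferon-gamma route, by which Ciita can be induced, 7 of 8 genes were tested. Ifngr2, a receptor chain, rose (log2 fold change 1.41 ± 0.43 SE, adjusted p = 0.0453, edgeR), but its log2 fold change was 0.71 without coculture replicate 3, under the 2-fold limit, and its adjusted p was 0.102 to 0.118 when any library of MKs cultured alone was left out. Ifngr1, the other receptor chain, was at 416.8 to 621.1 CPM in MKs cultured alone and 2.93 to 179.3 CPM in cocultures. It was not called with all libraries (log2 fold change -2.03 ± 0.86 SE, adjusted p = 0.124, edgeR). Without coculture replicate 3 it was called lower (log2 fold change -1.64 ± 0.19 SE, adjusted p = 1.46e-06, edgeR), and the route then had 2 genes called lower and 0 higher. The kinase gene Jak1 stayed just inside the 2-fold limit (log2 fold change -0.97 ± 0.28 SE, adjusted p = 0.0367, edgeR). Ifng itself had 15, 7, 5 and 5 counts in MKs cultured alone and 0 in all cocultures, which allows up to 0.284 to 0.520 CPM there, and it was below the filter. Among the lineage factors that regulate Ciita, Irf8 fell from 97.8 to 126.4 CPM in MKs cultured alone to 30.1 to 50.2 CPM in cocultures (log2 fold change -1.42 ± 0.23 SE, adjusted p = 0.00271, edgeR). Spi1, which encodes PU.1, had a log2 fold change of -0.73 ± 0.49 SE (adjusted p = 0.325, edgeR) and of -1.50 ± 0.23 SE without coculture replicate 3 (adjusted p = 4.35e-05, edgeR), and without that library 4 of the 5 lineage factors were called lower.

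The endosomal proteases that process antigen and the invariant chain went the other way, with 5 of 5 tested genes higher. Ctsl, cathepsin L, rose 19.5-fold (log2 fold change 4.29 ± 0.20 SE, adjusted p = 6.11e-06, edgeR), and Ctsb, cathepsin B, rose by 2.79 ± 0.21 SE on the log2 scale (adjusted p = 3.81e-05, edgeR). Ctss, cathepsin S, the main invariant chain protease of antigen-presenting cells, rose by 1.60 ± 0.24 SE (adjusted p = 0.00168, edgeR), and the log2 fold changes were 1.49 for Ctsd and 2.42 for Lgmn. Ctss per summed chain transcripts was 0.326 to 0.818 in MKs cultured alone and 4.94 to 7.85 in cocultures, a 12.6-fold difference (exact permutation test, two-sided, p = 0.0286, adjusted over the 11 ratios 0.0449, n = 4 and 4). As Ctss was higher and the chain sum lower in every coculture, this ratio had to separate, and its p adds nothing to those differences. The proteases serve lysosomes in many cell types, and macrophage and MSC markers rose in the same libraries, as given below.

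Of 3 genes that act on class II at the cell surface, 0 were called in edgeR's test, where 2 had an unadjusted p under 0.05, and 2 were called lower by DESeq2 and without coculture replicate 3. March8, a ubiquitin ligase that removes class II from the surface, had almost the same mean in both groups (log2 fold change 0.019 ± 0.31 SE, adjusted p = 0.974, edgeR). Of 7 ligands for T cell co-receptors 0 were called by edgeR with 2 at an unadjusted p under 0.05, whereas DESeq2 called 1 higher and 1 lower, and 2 were higher and 1 lower without coculture replicate 3. Cd86, a co-stimulatory ligand, had a log2 fold change of 0.44 ± 0.45 SE (adjusted p = 0.534, edgeR), and Cd80, its relative, was at 38.7, 32.3, 0 and 26.2 CPM in the cocultures against 0.44 to 2.44 CPM in MKs cultured alone (adjusted p = 0.0719 with all libraries and 3.00e-08 without coculture replicate 3, edgeR). Of 3 tested T cell genes, Cd3d, a chain of the T cell receptor complex, was called lower (log2 fold change -2.23 ± 0.64 SE, adjusted p = 0.0345, edgeR), but its adjusted p was 0.0514 to 0.115 when any library other than coculture replicate 3 was left out. Over all 41 pathway genes, 22 had an unadjusted p under 0.05.

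**Figure D3:**
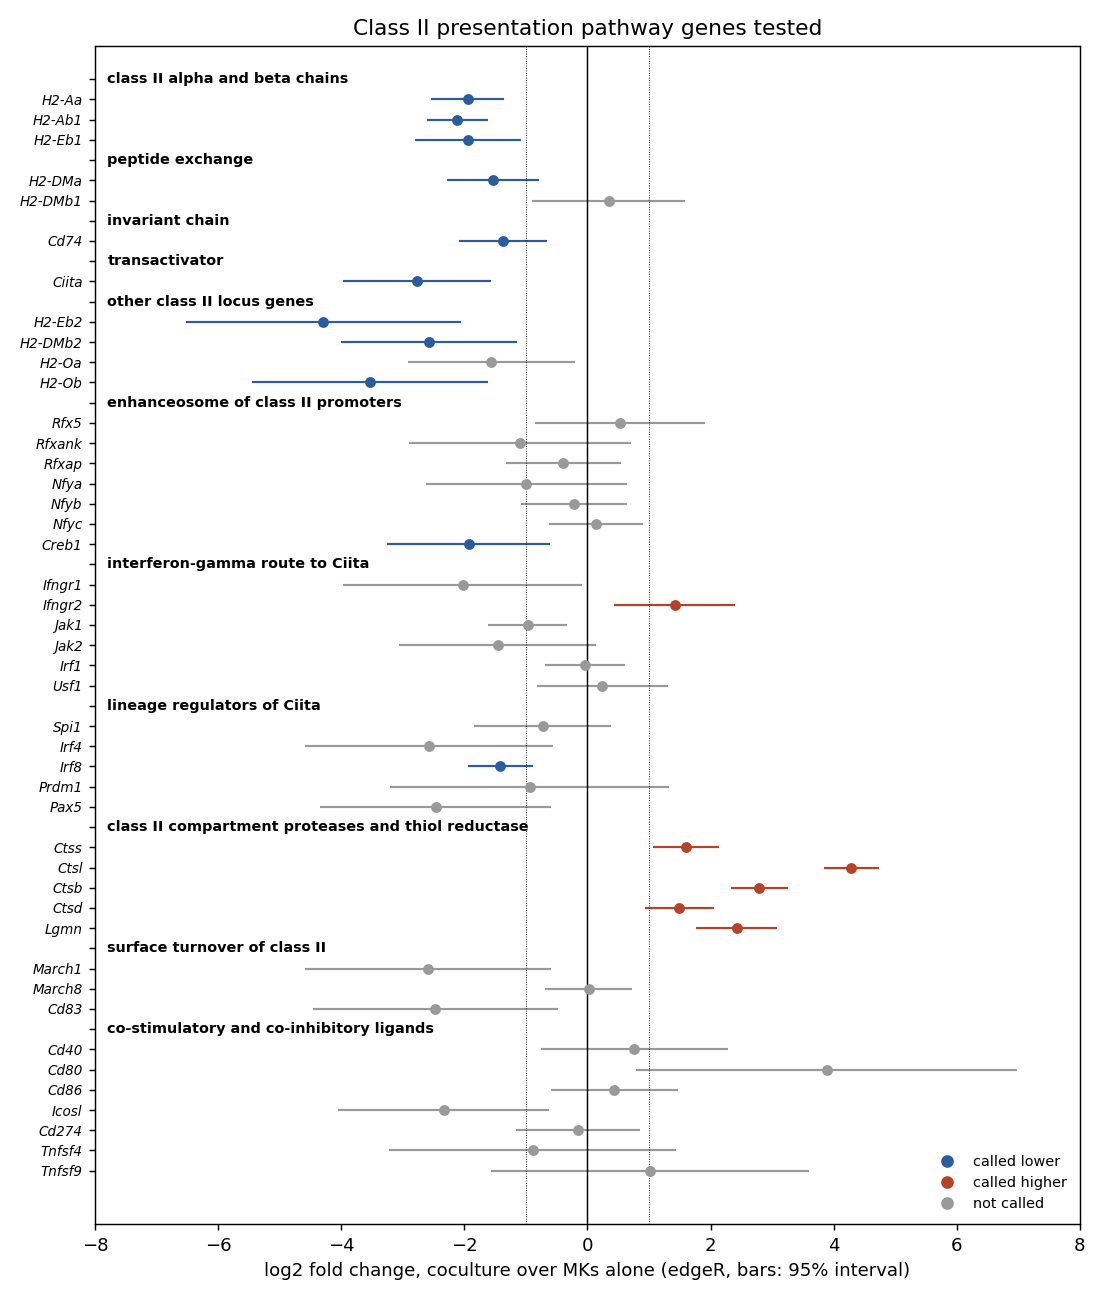
Log2 fold change of cocultures over MKs cultured alone (horizontal axis, bars for the 95% interval, dotted lines at the 2-fold limits) for the 7 genes and the tested pathway genes other than T cell genes and 1 gene not reported here, grouped by role and coloured by call. The 5 proteases lie to the right of 0, whereas the chain genes, Cd74, Ciita and the other class II genes of the region lie to the left.

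Markers of the cell types that usually carry class II moved as well. Of 10 tested B cell markers 5 were called lower and 0 higher, and 8 lower without coculture replicate 3. Their summed level was 926.1 to 1052 CPM in MKs cultured alone and 130.2 to 281.5 CPM in cocultures. None of the B cell markers was at 0 in MKs cultured alone, and Vpreb1 was at 0 in coculture replicate 3. Of 9 dendritic cell markers 3 were called lower and 1 higher, with sums of 183.2 to 227.5 CPM in MKs cultured alone and 114.0 to 220.2 CPM in cocultures, or 114.0 to 125.3 CPM without coculture replicate 3, in which Itgax, Zbtb46, Cd209a and Ccr7 were at 0. All 5 tested monocyte markers were called lower, and the sums of the list were 1393 to 1802 and 126.3 to 297.9 CPM. The sixth, Fcgr1, was below the filter, at 0 to 0.441 CPM in MKs cultured alone and at 2.09, 9.51, 0 and 2.95 CPM in the cocultures, and was called higher without coculture replicate 3 (adjusted p = 0.000114, edgeR). Macrophage markers went up, with 8 of 10 called higher and sums of 260.7 to 333.6 CPM in MKs cultured alone and 1581 to 1906 CPM in cocultures; Cd163 was at 0 in coculture replicate 3. The part of these cell types in the class II result was not tested.

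The sum of H2-Aa, H2-Ab1 and H2-Eb1 was 394.0 to 588.6 CPM in MKs cultured alone and 101.8 to 141.1 CPM in cocultures. Per summed B cell markers it was 0.425 to 0.604 in MKs cultured alone and 0.401 to 1.08 in cocultures, a log2 difference of 0.17 that was within the spread (exact permutation test, two-sided, p = 0.83, n = 4 and 4, adjusted over the 11 ratios 0.83). Without coculture replicate 3 it was 0.401 to 0.496 in cocultures, and the log2 difference turned to -0.15 (exact p = 0.4). Per summed dendritic cell markers the chain level was 1.85 to 2.84 in MKs cultured alone and 0.641 to 1.11 in cocultures, and per summed macrophage markers 1.51 to 1.77 and 0.0601 to 0.0892, a 24.0-fold lower value in cocultures. For both ratios the exact permutation p was 0.0286, two-sided and adjusted over the 11 ratios 0.0449, with n = 4 and 4. The macrophage ratio had to separate, as the chain sum was lower and the macrophage sum higher in every coculture. Its p therefore adds nothing to those differences. The dendritic cell ratio rested on Tcf4 and Bst2, which made up most of that sum in cocultures. The other 7 markers summed to 116.3 to 143.4 CPM in MKs cultured alone and 4.39 to 31.4 CPM in cocultures, and the chains per these 7 were 2.92 to 4.47 and 3.65 to 32.1, or 3.65 to 4.52 without coculture replicate 3, so that the groups overlapped. Against macrophage markers the chains were lower in all cocultures.

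Of the other marker lists, all 11 neutrophil markers were called lower, with sums of 85269 to 87391 CPM in MKs cultured alone and 4547 to 10329 CPM in cocultures. All 7 tested MSC markers were called higher, with sums of 42.8 to 69.3 and 1242 to 4103 CPM, and the part of this added RNA in the values of other genes was not tested. MK and platelet markers summed to 2232 to 2629 CPM in MKs cultured alone and 1733 to 2477 CPM in cocultures, and 2 of 15 were called lower. That sum was 1733 to 2102 CPM in cocultures without replicate 3, below all MKs cultured alone, with 3 called lower and 1 higher. T cell markers summed to 64.1 to 84.8 and 49.4 to 125.7 CPM, with 2 of 5 called lower, or 49.4 to 81.7 CPM in cocultures and 5 of 6 called lower without coculture replicate 3. When the counts were scaled to the MK and platelet markers in place of all genes, 6 of the 7 class II genes were again called lower.

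**Figure D4:**
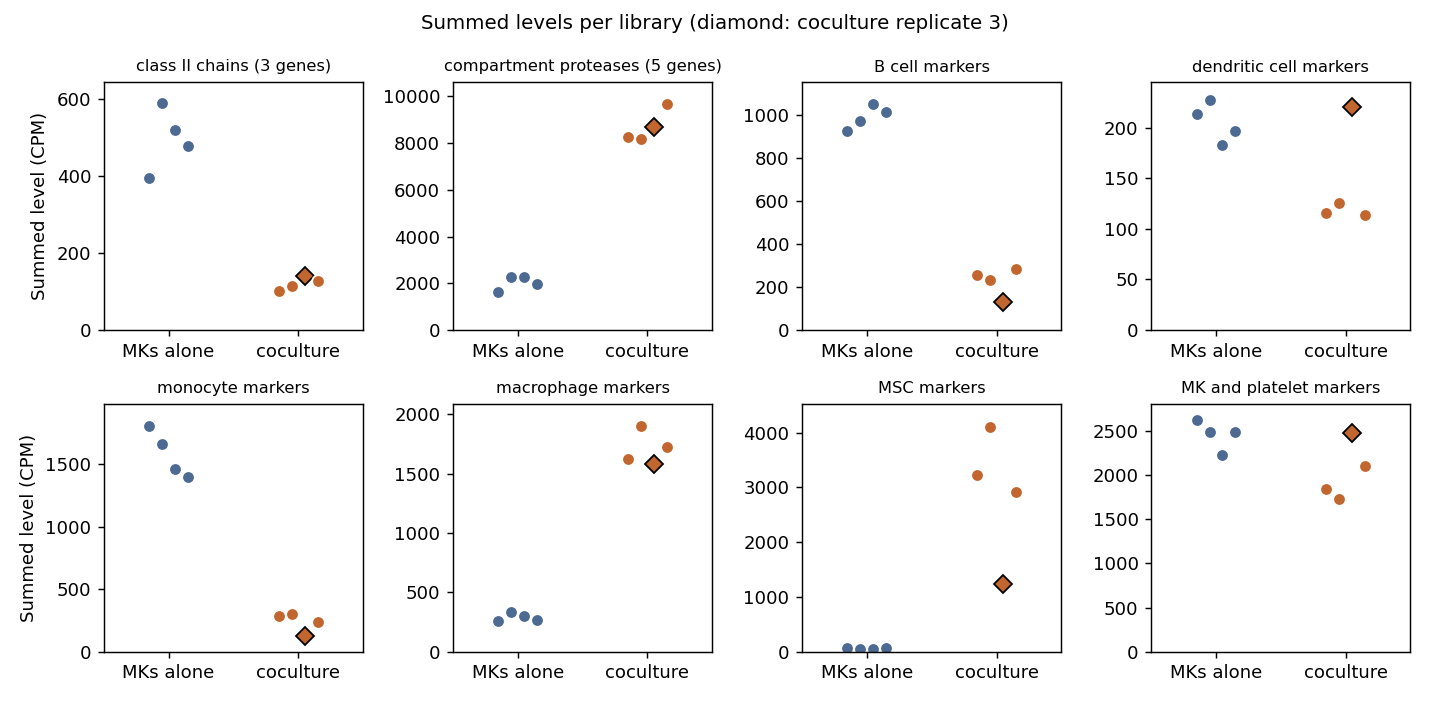
Summed CPM (vertical axis from 0, with its own scale in each panel) of the class II chains, the 5 proteases and the markers of 6 cell types, with a point for each library and a diamond for coculture replicate 3. Chains, monocyte and B cell markers lie lower in all cocultures than in any library of MKs cultured alone, and proteases, macrophage and MSC markers lie higher.

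The most abundant gene of each marker list gave single values for these cell types. Ms4a1, the B cell antigen CD20, had a log2 fold change of -2.82 ± 0.70 SE (adjusted p = 0.0196, edgeR, or 0.0547 without MKs-alone replicate 1 and 0.0536 without coculture replicate 2), and Ly6c2 of monocytes one of -2.70 ± 0.25 SE (adjusted p = 0.000120, edgeR). S100a8, a neutrophil calcium-binding protein, had a log2 fold change of -3.46 ± 0.42 SE (adjusted p = 0.000565, edgeR). Axl, a receptor tyrosine kinase of macrophages that stromal cells also express, rose by 6.25 ± 0.41 SE on the log2 scale (adjusted p = 2.55e-05, edgeR), and the matrix gene Sparc rose by 10.95 ± 0.64 SE (adjusted p = 1.80e-05, edgeR). Tcf4 of plasmacytoid dendritic cells (log2 fold change 0.23, or -0.17 without coculture replicate 3), Pf4 of platelets (0.35) and Il7r of lymphoid cells (0.78) were not called.

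Across the 8 libraries the 6 genes that fell had correlations of log2(CPM + 1) with each other of 0.82 to 0.98, and H2-DMb1 had correlations of -0.15 to 0.40 with them. The genes most like the 7 were sought among 8989 genes of at least 10 CPM, by Pearson's r with the mean of the 7 scaled profiles. They were Padi2 (r = 0.995), Nfam1 (0.994), Atg16l2 (0.991), Lcn2 (0.991) and E2f2 (0.989), all called lower. After the group means had been subtracted they were Ruvbl2 (0.987), Samd14 (0.984), Unc93b1 (0.982), Ciapin1 (0.981) and Nomo1 (0.979), none of them called. Without coculture replicate 3, 0 of either 5 remained, so both lists rest on that library, and as all libraries share the group difference these correlations are descriptions only.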

How the data were processed

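RNA was isolated with Takara NucleoSpin columns and turned into libraries with Takara's SMART-seq HT chemistry for low input. The authors trimmed their reads by fastp, ran kallisto against the mm10 transcriptome and deposited raw counts per gene symbol for 8 libraries. How transcripts were summed to genes and rounded, and whether strand was used, is not given in the sources used here. The authors compared the groups with DESeq2 and a batch term, but the batches are not named, so no batch term could be fitted and a batch effect cannot be told apart from the spread or the groups.

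The deposited counts were tested with edgeR 4.0.16 (quasi-likelihood F test with robust dispersions, TMM scaling, the filterByExpr filter and Benjamini-Hochberg adjustment) in R 4.3.3 over 11722 genes and all 8 libraries without covariates. Calls needed a fold of 2, an adjusted p of 0.05 and a mean of 1 CPM in a group, and the log2(CPM + 1) scale served correlations. Ratios within libraries were tested by exact permutation in scipy 1.17.1. Totals were 4939874 to 12523616 counts per library, and floors of 3 counts cover counting error only. Gene models came from GENCODE (GRCm38) and promoter windows from RefSeq (GRCm38.p6). The scripts were tested on simulated counts. Alternatives were DESeq2 1.42.0, other scaling, filters, fold tests, a replicate block, and each library left out. A fit without robust dispersions marker sums, ratios and levels per kilobase without coculture replicate 3, and a dendritic cell sum without Tcf4 and Bst2 were added after seeing the data.

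The 7 genes, the pathway and marker lists and the tests were chosen with earlier results of these data known. By rule, values were given for the 7 genes, the other class II genes of the region, in each other pathway list the called gene of largest change and the most abundant gene, and in each marker list the most abundant gene. The values of 1 pathway gene are not reported here. Other named genes were chosen after their values were seen.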

Additional observations from a re-analysis of the deposited data

Results flagged for a closer look

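In each group of 4 libraries, a value was set apart when its gap to the nearest other library, over the range of the group, passed Dixon's critical value for 4 samples at the 95% level. Of 60 groups of values examined, 6 had such a value, where chance gives about 1 in 20, or 3, and 4 of the 6 were in coculture replicate 3. H2-Aa had a log2(CPM + 1) of 6.27 in coculture replicate 3 and of 5.36 to 5.46 in the other cocultures. Cd74 had a log2(CPM + 1) of 8.70 in MKs-alone replicate 1 and of 9.49 to 9.59 in the other libraries of MKs cultured alone. The log2 ratio of H2-DMb1 to H2-DMb2 was 6.03 in coculture replicate 3 and 0.90 to 1.01 in the other cocultures. The log2 ratio of the chains to macrophage markers was 0.60 in MKs-alone replicate 1 and 0.80 to 0.82 in the others of that group. The log2 of the summed CPM was 7.78 for dendritic cell markers in coculture replicate 3 against 6.83 to 6.97 in the other cocultures, and 12.15 for neutrophil markers against 13.25 to 13.33. The causes were not tested.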

How the results depend on the processing

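No alternative called any of the 7 genes higher, and 6 were called lower in all of them except these: 5 with at least 10 counts in every library, which removed Ciita, 4 with glmTreat, and 5 to 6 when single libraries were left out. Cd74 and H2-DMa lost their calls when the fold itself was tested against 2 (adjusted p = 0.243 and 0.141, edgeR's glmTreat), and Cd74 also without MKs-alone replicate 2, coculture replicate 2 or coculture replicate 4. Of the members' values, 119 were unchanged in direction and call, 5 lost the call and 1 reversed. The log2 fold change of H2-DMb1 was 0.35 with all libraries and -0.49 to 0.59 when single libraries were left out.

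Pathway genes called lower numbered 7, and 14 with DESeq2, 4 with library size only, 4 on scaling to the MK and platelet markers, 4 with at least 10 counts in every library and 2 with glmTreat, and 3 to 17 when single libraries were left out, with 17 without coculture replicate 3. March8 reversed from 0.019 to -0.0075 with DESeq2, -0.0084 with RLE factors, -0.00011 with no filter and -0.057 with the 10-count filter, and spanned -0.12 to 0.21 when single libraries were left out. Tcf4 spanned -0.17 to 0.43. On scaling to MK markers the median over all genes was 0.34 in place of 0.034 (log2). The causes were not tested.

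Same-numbered libraries of both groups had correlations of their deviations of 0.37, 0.020, 0.15 and 0.028. Differently numbered ones had correlations of -0.28 to 0.099. Whether the replicate numbers pair the libraries was not tested. With the replicate block, pathway genes called lower were 3 (16 with DESeq2 and the block) and March8 was -0.033 (-0.053 with DESeq2 and the block), while over all genes 573 were called lower in place of 857.

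Depth limits Ciita, at 6 to 12 counts in cocultures, and Ifng. Coculture replicate 3 had the most counts, 12523616, and 2652 genes at 0, and the cause was not tested.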
